A study of Mus musculus with 6 samples.

Results

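Iron and heme handling was described through 10 genes of isolated mouse cardiomyocytes. These were the heme oxygenases Hmox1 and Hmox2, the ferritin subunits Fth1 and Ftl1, the transferrin receptor Tfrc, and the iron carriers Slc11a2 and Slc40a1. The others were the iron regulatory proteins encoded by Aco1 and Ireb2, and Alas1, the first enzyme of heme synthesis. The 10 genes were taken by name from the 54232 genes of the table, with earlier results of these data known. All 10 were found and tested. UtyGT cardiomyocytes came from adult male mice that carry the gene trap UtyGt(XS0378)Wtsi within an intron of the Y-linked gene Uty, and WT cardiomyocytes came from adult males of the isogenic strain C57BL/6.Y<129P2>. Hearts were digested with collagenase, and cells settled by gravity were kept on laminin for 4 h before RNA was taken, in UtyGT and WT alike. Each strain had 3 isolations, each read as 1 library (UtyGT d, e and f; WT e, f and g). The sources used here give no exact ages and no number of animals behind an isolation, so that p-values measure the spread between isolations. The trap is present in every cell of the animal.

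Cells take up iron bound to transferrin through the transferrin receptor, move it across membranes as the ferrous ion, store it in ferritin and release it through ferroportin, the product of Slc40a1. The iron regulatory proteins bind a hairpin, the iron-responsive element, when iron is scarce: bound near the start of ferritin or ferroportin mRNA the element blocks translation, and bound behind the coding sequence of Tfrc mRNA it protects the message from decay. Heart muscle spends much of its iron on heme and iron-sulfur clusters of the respiratory chain and on myoglobin, and heme oxygenases return the iron of worn heme.

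The hairpins were searched for in annotated untranslated regions, because the results below differ between genes that carry the same kind of element. The pattern was a C, 5 bases, the loop CAGTGN and 5 bases that pair with the first 5 (G with T allowed). It was found once each near the start of Fth1, Ftl1 and Slc40a1 mRNA, and at 4 places behind the coding sequence of Tfrc. Of all annotated genes with the region, 0.151% held the pattern in a 5′ untranslated region (31 of 20597) and 0.615% in a 3′ untranslated region (129 of 20979). The windows of 30 bases follow, 5′ to 3′ on the strand of the gene, from GENCODE transcripts on GRCm38, with the 6 bases of the loop in capitals.
Fth1, 5′ untranslated region, chr19:9982731-9982760, plus strand: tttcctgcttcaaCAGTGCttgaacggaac
Ftl1, 5′ untranslated region, chr7:45459779-45459808, minus strand: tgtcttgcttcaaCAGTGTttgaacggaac
Slc40a1, 5′ untranslated region, chr1:45925465-45925494, minus strand: ccaacttcagctaCAGTGTtagctaagttt
Tfrc, site 1 in the 3′ untranslated region, chr16:32631218-32631247, plus strand: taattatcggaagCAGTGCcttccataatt
Tfrc, site 2, chr16:32631597-32631626, plus strand: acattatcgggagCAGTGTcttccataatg
Tfrc, site 3, chr16:32631662-32631691, plus strand: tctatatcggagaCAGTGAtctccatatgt
Tfrc, site 4, chr16:32631709-32631738, plus strand: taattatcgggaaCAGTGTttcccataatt

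The Fth1 and Ftl1 windows differed at 3 of 30 positions and had the same paired bases around the loop. The Slc40a1 window differed from each of those at 17 positions. The 4 Tfrc windows differed from one another at 5 to 12 positions. The pattern was not met in the other 6 genes, which says only that these letters are not there. A match is a sequence feature, and binding was not measured.

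Libraries held 28283654 to 48377453 reads, and a given gene of the 10 had from 373 to 52631 reads in a library. Uty, the trapped gene, had 13.9, 10.5 and 8.03 normalized counts in the UtyGT libraries, against 1093, 1017 and 877 in the WT libraries, as the labels state. A normalized count is the number of reads of a gene divided by a size factor of its library. Reads of mitochondrial-genome genes took 39.8% to 44.8% in UtyGT and 46.9% to 54.7% in WT. UtyGT f had a read for 28619 genes, against 21615 to 22917 in the other libraries. The 4 atrial genes Myl7, Myl4, Sln and Nppa summed to 1102, 9652 and 5954 normalized counts in UtyGT d, e and f, against 829 to 978 in WT. Cardiomyocyte markers were abundant in every library, and none of 8 passed limma's test (0 also at an unadjusted p under 0.05, 0 in edgeR and 1 higher in DESeq2). Of all tested genes 13.1% were higher and 15% lower at an unadjusted p under 0.05. At an adjusted p under 0.05, limma had 4.55% of them rise and 6.12% fall. Markers of other heart cells were also read. By limma 3 of 10 rose for endothelium, 4 of 9 for fibroblasts and 4 of 7 for smooth muscle and pericytes. None of them fell (0 lower also at an unadjusted p under 0.05, in edgeR and in DESeq2). In the same order, 7, 5 and 5 were higher at an unadjusted p under 0.05. In edgeR 6, 4 and 4 rose (5.26% of all tested genes), and in DESeq2 6, 2 and 4 (5.74%). Endothelial markers summed to 25149, 16532 and 26558 normalized counts in UtyGT d, e and f, against 15893 to 18145 in WT, and their part in the results below was not tested. Hemoglobin and other erythrocyte markers summed to at most 97.9 normalized counts.

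Of the 10 genes, 1 rose (Ftl1), 1 fell (Slc40a1) and 8 did not pass the test, which was limma on log2 of the normalized count plus 1, at an adjusted p under 0.05 over 13875 genes. Among all tested genes 4.55% rose and 6.12% fell, so that 1 call in each direction among 10 genes is near the background. The median log2 fold change (UtyGT over WT) was -0.06 over the 10 genes and 0.00 over all tested genes, and the median size regardless of sign was 0.20 and 0.18. The largest change of the 10 was that of Slc40a1, at 0.67 of its WT level.

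**Figure D1:**
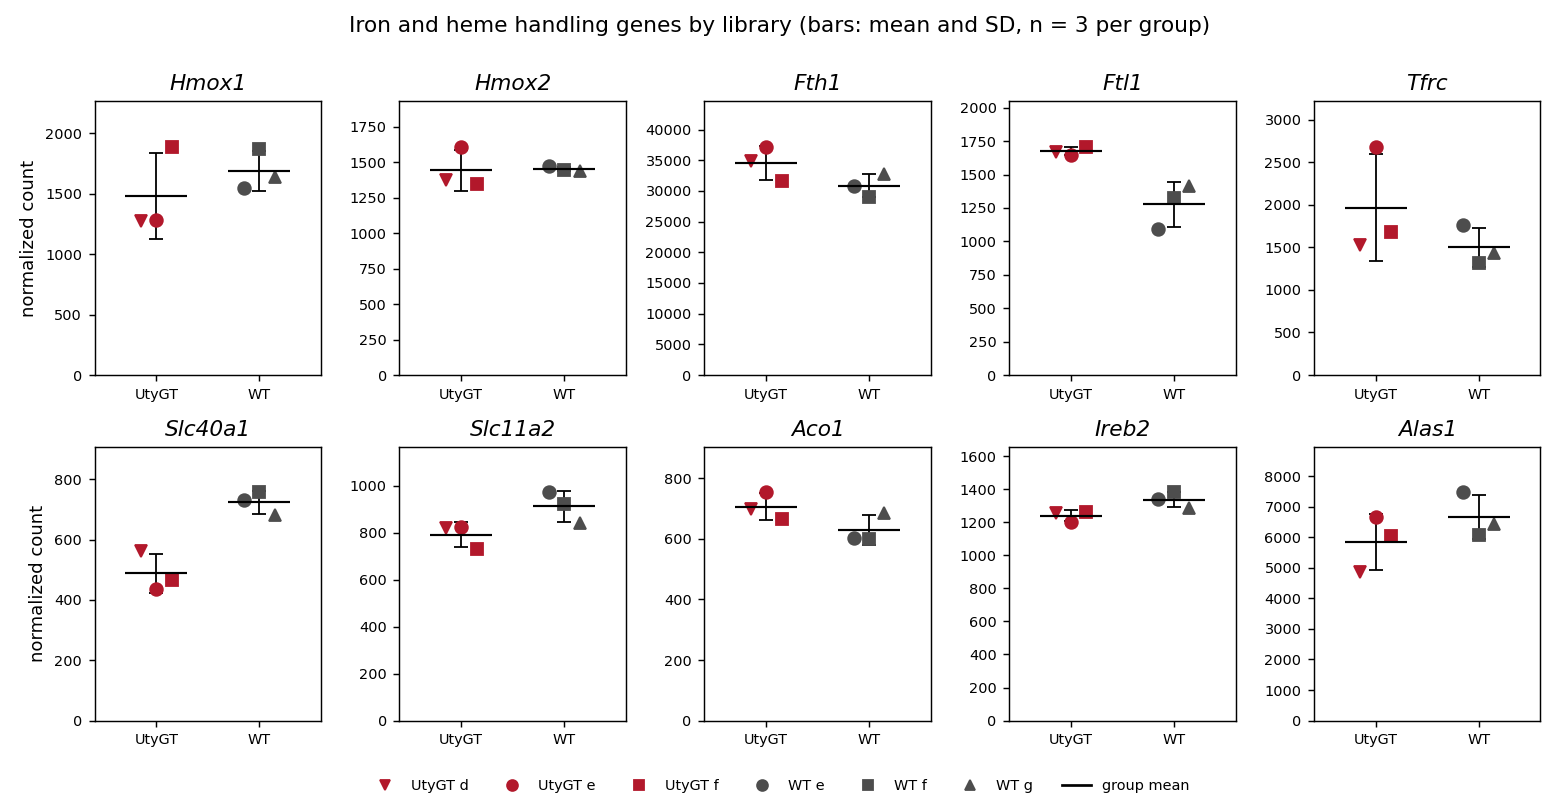
Normalized counts of the 10 genes in the 3 UtyGT libraries (left, red) and the 3 WT libraries (right, grey), each panel on its own linear axis from 0; horizontal lines are group means, error bars the SD (n = 3 each), and marker shapes the library letters. The groups are apart for Ftl1 (UtyGT higher), Slc40a1, Slc11a2 and Ireb2 (UtyGT lower) and overlap in the other panels.

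Slc40a1, which encodes ferroportin, the only known cellular iron exporter of mammals, fell. It lies at chr1:45908068-45926523 on the minus strand of GRCm38. Its normalized counts were 562, 437 and 465 in UtyGT d, e and f, against 730, 757 and 682 in WT e, f and g. The groups were well apart, with the highest UtyGT library below the lowest WT library. The means were 488 ± 65.9 in UtyGT and 723 ± 37.8 in WT (SD, n = 3 each), a log2 fold change of -0.57 ± 0.10 (SE), or 0.67 of the WT level (95% interval 0.58 to 0.78, limma adjusted p = 0.0054). Without any 1 library the log2 fold change lay between -0.68 and -0.50, and limma called the fall in all 6 such fits (adjusted p at most 0.042). Moderation of the variance without a trend was the one alternative that lost the call (adjusted p = 0.074).

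Macrophages are rich in ferroportin and in heme oxygenase, so that their markers were read beside both genes. Of 13 macrophage and myeloid markers, 11 were tested, and by limma 2 rose (Lyz2 and C1qc), against 4.55% of all tested genes. None fell, against 6.12% (0 lower also at an unadjusted p under 0.05, in edgeR and in DESeq2). At an unadjusted p under 0.05, 5 were higher, and 3 rose in edgeR and 2 in DESeq2. Their summed level was 663, 546 and 653 normalized counts in UtyGT d, e and f, against 392, 600 and 465 in WT e, f and g, with WT f within the UtyGT values. Of the 9 markers that did not pass the test, Adgre1 (-0.23), Cd68 (-0.10), Cd14 (-0.27) and Ptprc (-0.16) had log2 fold changes below 0, and the other 5 had values above 0. The median log2 fold change of the 11 markers was 0.56, and the part of these cells in the Slc40a1 and Hmox1 levels was not tested. In these bulk libraries, fewer cells of a type and less RNA per cell cannot be told apart.

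Ftl1, the light chain of ferritin that helps iron to mineralize within the shell, rose. It lies at chr7:45457944-45459884 on the minus strand. It had 1669, 1649 and 1709 normalized counts in UtyGT, against 1091, 1323 and 1415 in WT. The UtyGT libraries were close together and all above the WT libraries, of which WT e was lowest. The means were 1676 ± 30.4 in UtyGT and 1276 ± 167 in WT (SD, n = 3 each), a log2 fold change of 0.40 ± 0.09 (SE), or 1.32 times the WT level (95% interval 1.15 to 1.51, limma adjusted p = 0.018). The estimate stayed between 0.29 and 0.48 when 1 library was left out, but the call was lost without UtyGT d (adjusted p = 0.053), without WT e (0.069) or without WT f (0.057), all by limma. It was also lost when the variance was moderated without a trend (adjusted p = 0.12).

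The Ftl1 count is uncertain because most of its sequence also occurs in other annotated genes. Of its 968 annotated windows of 50 bases, the length of a read, 86.2% also occurred in at least 1 of 17 other annotated genes. Among them were Ftl1-ps1 with 675 shared windows and genes that overlap Ftl1 itself. The latter were Gm10252 on the opposite strand (307 shared windows) and Gm22133 on the same strand (60). Rows named as ferritin pseudogenes by their symbol held few reads (41 in all 6 libraries and 5 rows together, or 0.0192% of the Fth1 and Ftl1 reads). Genes under other names that share windows are not in that sum, such as Gm6977 with Fth1 (61 reads) and Gm7541 with Ftl1 (11 reads). The sources used here do not say how reads that match several places were counted, so that the printed Ftl1 level may hold only part of its reads.

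Fth1 (chr19:9980598-9985098, plus strand), the heavy chain that oxidizes iron on entry into ferritin, was the most abundant of the 10 and did not pass the test. It had 34816, 37201 and 31595 normalized counts in UtyGT, against 30818, 28950 and 32764 in WT. UtyGT d and e were above all WT libraries, while UtyGT f lay within them. The fold was 1.12 (95% interval 0.99 to 1.27, limma adjusted p = 0.22). Of the Fth1 windows 3.59% were shared with another gene. Quantile normalization alone among the alternatives gave a call, at 0.30 on the log2 scale (limma adjusted p = 0.0033).

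The light chain was set against the heavy chain within each library, a ratio that does not depend on scaling between libraries. There were 4.79, 4.43 and 5.41 Ftl1 reads per 100 Fth1 reads in UtyGT, against 3.54, 4.57 and 4.32 in WT. UtyGT e lay between WT g and WT f, so the groups overlapped. The means were 4.88 ± 0.49 in UtyGT and 4.14 ± 0.54 in WT (SD, n = 3 each), and an exact permutation test gave a two-sided p of 0.2, where 3 libraries against 3 cannot go below 0.1. The ratio carries the same uncertainty of the Ftl1 count.

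Tfrc, the transferrin receptor (chr16:32608920-32632794, plus strand), had 1531, 2683 and 1686 normalized counts in UtyGT, against 1760, 1315 and 1433 in WT. UtyGT e stood far above the other 5 libraries, and UtyGT d and f were below WT e. The fold was 1.28 with a wide interval (95% 0.99 to 1.66, limma adjusted p = 0.20). Without UtyGT e the log2 fold change dropped to 0.11 (adjusted p = 0.52), so that the estimate rests on that library. Testing all genes with no filter on low values gave a call for Tfrc (limma adjusted p = 0.0028). The estimate was the same as in the main fit (log2 fold change 0.35). Only the moderated variance and the number of genes tested (34219) differed. UtyGT e also had the highest sum of atrial genes, and a link between both was not tested.

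Slc11a2 (chr15:100387898-100425072, minus strand) encodes DMT1, which carries ferrous iron out of the endosome after uptake. It had 820, 824 and 730 normalized counts in UtyGT, against 971, 923 and 840 in WT. The groups did not overlap, although UtyGT e and WT g were close. The difference did not pass the test (0.87 of the WT level, 95% interval 0.77 to 0.99, limma adjusted p = 0.14). Of its windows 4.35% also occurred in other genes, most of them in Gm5475 on the opposite strand.

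Over the 10 genes, UtyGT was above WT without overlap in 1 and below WT without overlap in 3, and among all tested genes 14.2% and 17.7% were apart in these directions. The 3 lower ones were Slc40a1, Slc11a2 and Ireb2.

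**Figure D2:**
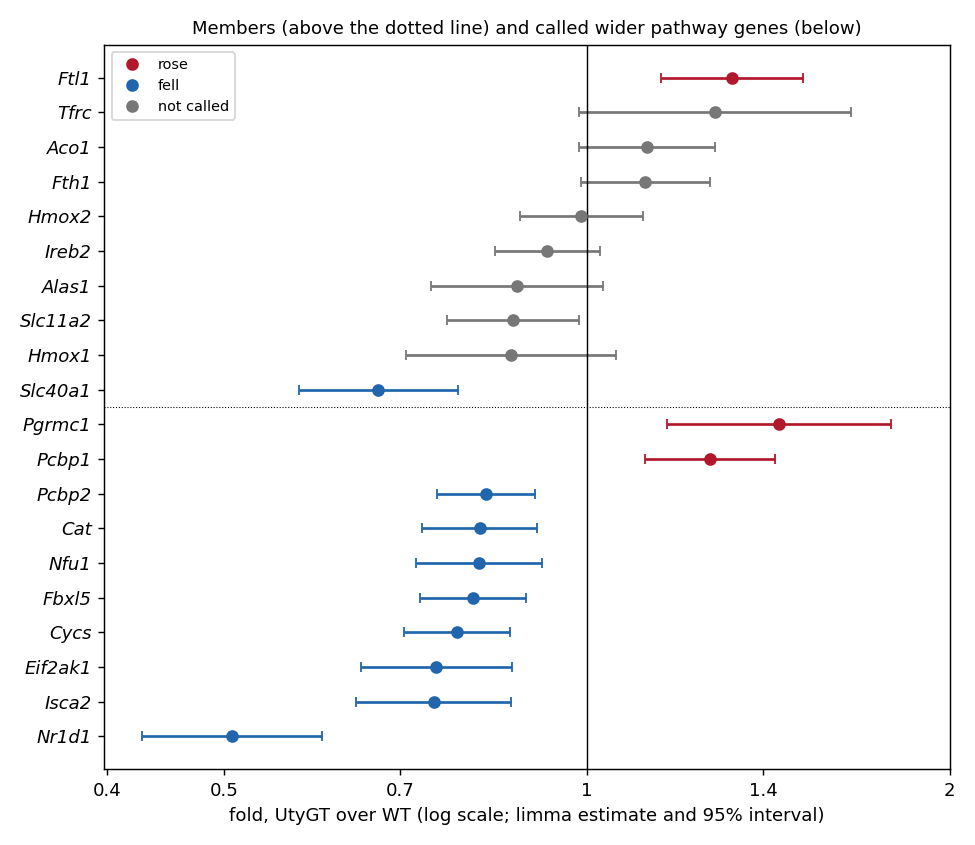
Fold of UtyGT over WT on a log axis with the 95% interval of limma for the 10 genes (above the dotted line) and for the called genes of the wider pathway (below), red for rose, blue for fell and grey for not called. The intervals of Ftl1 and Slc40a1 lie on opposite sides of 1, that of Tfrc is the widest among the 10, and that of Hmox2 spans 0.88 to 1.11.

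The iron regulatory proteins showed small differences that did not pass the test. Aco1 (chr4:40143081-40198338, plus strand) encodes IRP1, which is a cytosolic aconitase when it holds an iron-sulfur cluster. It had 699, 754 and 667 normalized counts in UtyGT, against 603, 601 and 687 in WT. WT g lay above UtyGT f, and the fold was 1.12 (95% interval 0.98 to 1.28, limma adjusted p = 0.23). Ireb2 (chr9:54863789-54912530, plus strand) encodes IRP2, which is degraded when iron is plentiful. It had 1256, 1202 and 1262 normalized counts in UtyGT, against 1339, 1381 and 1288 in WT. All UtyGT libraries were below all WT libraries, by a narrow gap between UtyGT f and WT g, and the fold was 0.93 (95% interval 0.84 to 1.03, limma adjusted p = 0.32).

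The 4 genes matched by the pattern are those that fit its letters, not all that carry an element: Slc11a2 is known for one in some of its mRNA forms and was not matched. Of the 3 with a match near the start, Ftl1 rose, Slc40a1 fell and Fth1 did not pass the test, and Tfrc with its 4 matches did not pass it either. The near-identical windows of Ftl1 and Fth1 printed above went with log2 fold changes of 0.40 ± 0.09 and 0.16 ± 0.08 (SE), and that of Slc40a1 with -0.57 ± 0.10. Levels of mRNA do not show translation, on which the element near the start acts.

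The heme oxygenases, which open the heme ring and free its iron, did not pass the test. Hmox1, the inducible form (chr8:75093621-75100589, plus strand), had 1275, 1279 and 1889 normalized counts in UtyGT, against 1550, 1869 and 1641 in WT. UtyGT d and e were below all WT libraries and UtyGT f above them all. The fold was 0.87 (95% interval 0.71 to 1.06, limma adjusted p = 0.33). Without UtyGT f, the library with reads for the most genes, Hmox1 was called lower, at -0.40 on the log2 scale (limma adjusted p = 0.017), and no other alternative called it.

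Hmox2, the constitutive form (chr16:4726361-4766742, plus strand), had 1376, 1609 and 1344 normalized counts in UtyGT, against 1472, 1445 and 1441 in WT. UtyGT e was highest and UtyGT d and f lowest, around 3 nearly equal WT libraries. The fold was 0.99 (95% interval 0.88 to 1.11, limma adjusted p = 0.93). Hmox2 overlaps Cdip1 on the opposite strand over 892 exon bases, and 41.9% of its windows also occurred in Cdip1 or Ppp4r2. The libraries were made with a stranded kit, but the sources used here do not name the strand setting of the counting.

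Alas1, the rate-limiting enzyme of heme synthesis outside red cell precursors (chr9:106233455-106248654, minus strand), had 4861, 6649 and 6057 normalized counts in UtyGT, against 7473, 6084 and 6424 in WT. UtyGT d was lowest and WT e highest, with the other 4 libraries interleaved. The fold was 0.88 (95% interval 0.74 to 1.03, limma adjusted p = 0.27). Its erythroid counterpart Alas2 was near background at 5.86 to 13.2 normalized counts in UtyGT and 7.49 to 10.8 in WT, and was not tested.

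**Figure D3:**
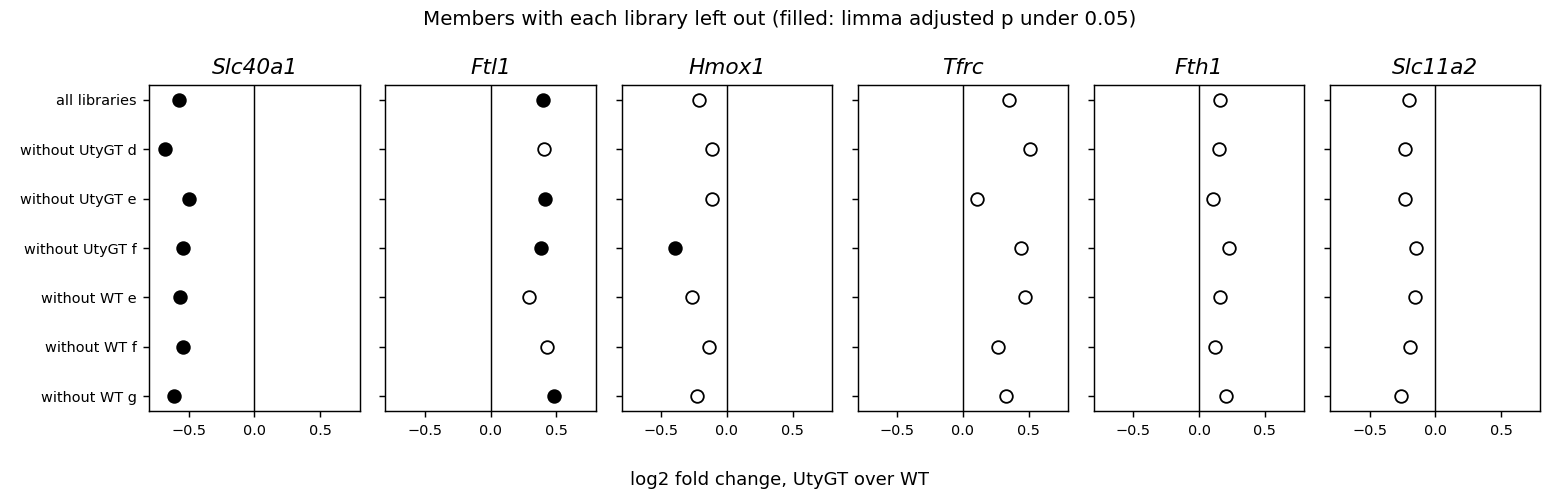
Log2 fold change of UtyGT over WT for 6 genes, with all libraries (top) and with each library left out in turn (below); filled points have a limma adjusted p under 0.05. Slc40a1 stays called throughout, Ftl1 loses its call in 3 rows, and Hmox1 gains one without UtyGT f.

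Per length, ferritin heavy chain led the 10 genes by a wide margin. On the RPKM scale (reads scaled to exon length and to all reads outside the mitochondrial genome), Fth1 averaged 516 in UtyGT and 454 in WT. Ftl1 (65.0 in UtyGT and 48.6 in WT), Alas1 (49.2 and 55.0), Hmox1 (44.1 and 49.2) and Hmox2 (33.7 and 33.5) followed. Tfrc stood at 16.4 in UtyGT and 12.4 in WT. Aco1 (8.15 and 7.16), Ireb2 (6.80 and 7.20) and Slc11a2 (6.46 and 7.32) changed places between strains within a narrow range, and Slc40a1 was lowest in both (2.82 and 4.10). The level of Ftl1 is subject to the shared windows given above.

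The calls on the 10 genes were the same with count-based tools on the recovered reads. In edgeR, Slc40a1 fell (adjusted p = 0.0078) and Ftl1 rose (adjusted p = 0.017), where 5.26% of all genes rose and 5.85% fell. In DESeq2, Slc40a1 fell (adjusted p = 0.00011) and Ftl1 rose (adjusted p = 0.0018), where 5.74% rose and 7.16% fell among 12530 genes with an adjusted p. Neither tool called any of the other 8.

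Around these genes, 101 further genes of iron and heme biology were listed, of which 88 were tested, 2 rose (2.27%), 8 fell (9.09%) and 78 did not pass the test. Their median log2 fold change was 0.00 and the median size 0.15, against 0.00 and 0.18 over all tested genes, so that the pathway as listed did not stand out from the background of 4.55% and 6.12%. The lists were chosen with earlier results of these data known.

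Heme-binding regulators held the largest change. Nr1d1, the clock repressor REV-ERBα whose ligand is heme, had 4933, 4652 and 3430 normalized counts in UtyGT, against 9079, 8323 and 7951 in WT. Every UtyGT library was well below every WT library, and the log2 fold change was -0.98 ± 0.11 (SE, limma adjusted p = 0.00053). Of its windows 8.23% were shared with Thra. Nr1d1 and Cycs were the called genes of the wider pathway whose calls held in all 6 fits with a library left out, and each of the other 8 lost its call in at least 1. Eif2ak1, the heme-regulated kinase of the translation factor eIF2α, fell by 0.41 ± 0.10 on the log2 scale (limma adjusted p = 0.020), with 1005, 1148 and 1020 normalized counts in UtyGT, against 1591, 1424 and 1230 in WT. Pgrmc1, a membrane protein that binds heme, rose by 0.53 ± 0.14 (limma adjusted p = 0.035), a call lost without any 1 library other than UtyGT e (adjusted p from 0.052 to 0.15). The Eif2ak1 call was lost without UtyGT d (limma adjusted p = 0.072), WT e (0.10) or WT f (0.084). Of the Eif2ak1 windows 12.1% were shared, most of them with Aimp2. The heme breakdown and transport list as a whole had 1 of 19 tested genes that rose and 2 that fell. Among all tested genes 4.55% rose and 6.12% fell, so that these counts are near the background at this list size.

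The mRNAs of Pcbp1 and Pcbp2, RNA-binding proteins that also deliver iron to ferritin, changed in opposite directions. In their list of ferritin storage and turnover, which also holds Ftl1, 2 of 8 tested genes rose and 1 fell by limma. Of all tested genes 4.55% rose and 6.12% fell, and the list is small and was chosen with earlier results known. Pcbp1 had 2803, 3122 and 3019 normalized counts in UtyGT, against 2116, 2348 and 2627 in WT, and rose by 0.34 ± 0.08 on the log2 scale (limma adjusted p = 0.025). Pcbp2 had 5444, 5966 and 5786 normalized counts in UtyGT, against 7109, 6950 and 6757 in WT, and fell by 0.28 ± 0.06 (limma adjusted p = 0.018). Leaving out WT e or WT f ended the Pcbp1 call (limma adjusted p = 0.12 and 0.095), and leaving out UtyGT d, WT e or WT f ended that of Pcbp2 (0.093, 0.088 and 0.086). Neither gene overlapped between the strains, and 38.7% of the Pcbp2 windows were shared, most of them with Map3k12. Ncoa4, the receptor that takes ferritin to lysosomes, had 516 ± 30.0 normalized counts in UtyGT and 497 ± 6.39 in WT (SD, n = 3 each) and did not pass the test.

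Fbxl5, the iron-sensing subunit of the ubiquitin ligase that removes IRP2, had 1001, 990 and 958 normalized counts in UtyGT, against 1215, 1242 and 1207 in WT. The libraries of a strain were close and the strains far apart, and the log2 fold change was -0.31 ± 0.07 (SE, limma adjusted p = 0.014). The call was lost without WT e (adjusted p = 0.059) or WT f (0.079). Ireb2, its target, is given above.

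In mitochondria, 2 of 20 tested genes of iron import and cluster assembly fell and none rose by limma (2 higher at an unadjusted p under 0.05, and 1 that rose in edgeR and in DESeq2), against 6.12% and 4.55% of all tested genes, so that both shares are near the background at this list size. Isca2, which helps build clusters of 4 iron atoms, had 1005, 1287 and 1057 normalized counts in UtyGT, against 1638, 1443 and 1391 in WT (log2 fold change -0.42 ± 0.10, limma adjusted p = 0.020). Nfu1, which passes such clusters to enzymes, had 966, 1132 and 963 in UtyGT, against 1261, 1274 and 1217 in WT (log2 fold change -0.30 ± 0.08, limma adjusted p = 0.035). For both, the highest UtyGT library was below the lowest WT library. The Isca2 call was lost without UtyGT d (limma adjusted p = 0.080), WT e (0.11) or WT f (0.069), and that of Nfu1 without any 1 library other than UtyGT e (0.065 to 0.14).

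Among heme and iron-binding proteins of muscle, cytochrome c and catalase fell. By limma these were 2 of 6 tested genes, and 0 rose, against 6.12% and 4.55% of all tested genes. The share that fell was above the background but rests on few genes, in a list chosen with earlier results known. Cycs had 4958, 5248 and 5193 normalized counts in UtyGT, against 7125, 6402 and 6227 in WT (log2 fold change -0.36 ± 0.07, limma adjusted p = 0.0084), and 28.5% of its windows were shared with other genes, chiefly with pseudogenes. Cat had 8509, 8952 and 8189 in UtyGT, against 11440, 10342 and 9740 in WT (log2 fold change -0.30 ± 0.07, limma adjusted p = 0.026), a call lost without UtyGT d (0.086), UtyGT f (0.054), WT e (0.12) or WT f (0.095). Reads of mitochondrial-genome genes were also lower in share in UtyGT, as given above, and a link with these genes was not tested.

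**Figure D4:**
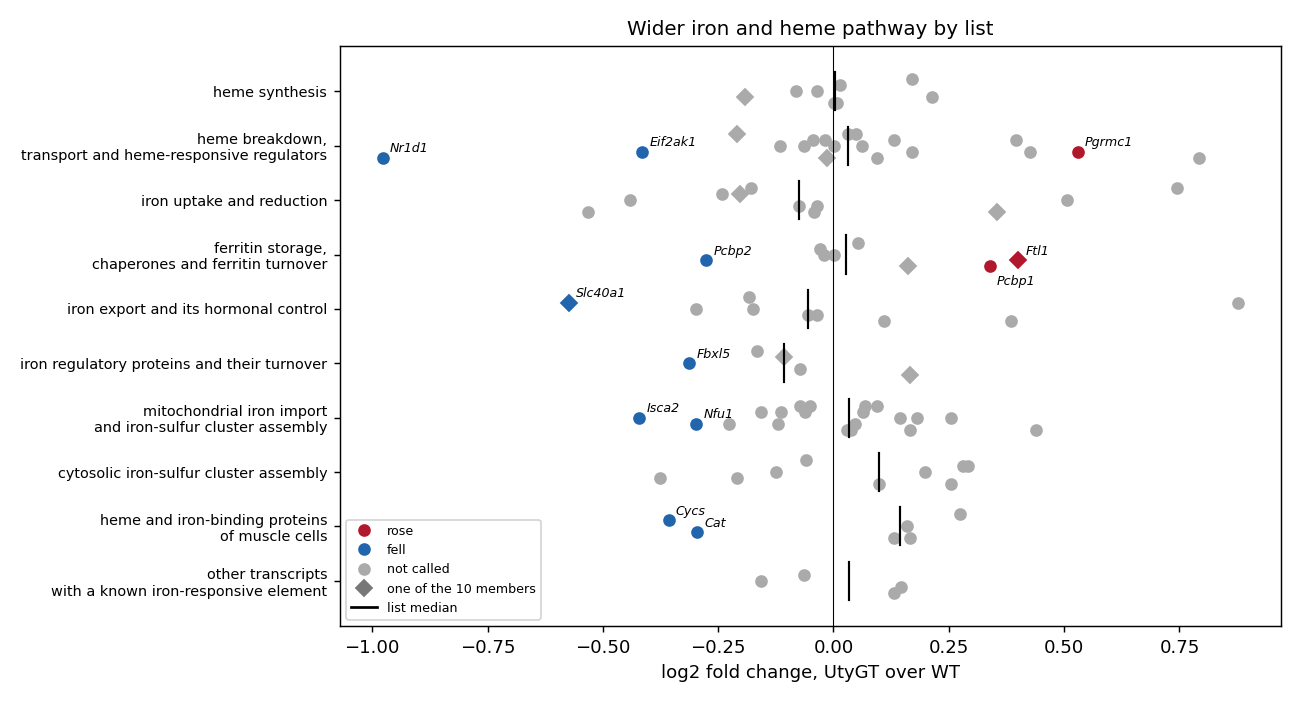
Log2 fold change of UtyGT over WT for each tested gene of the 10 pathway lists, red for rose, blue for fell and grey for not called, with diamonds for the 10 genes of the main set and a vertical stroke for the median of a list. List medians lie between -0.11 and 0.15, and named genes are those called.

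Heme synthesis, iron uptake, cytosolic cluster assembly and the other transcripts known for an iron-responsive element had no called gene in limma, edgeR or DESeq2. Of the 8 tested heme synthesis genes, 1 was higher at an unadjusted p under 0.05, and Alas1 was the most abundant of them. Of the 11 uptake genes, 1 was higher and 2 were lower at an unadjusted p under 0.05. By the mean over all 6 libraries the most abundant was Slc39a14, a carrier of iron not bound to transferrin (1802 ± 99.0 normalized counts in UtyGT and 1854 ± 49.1 in WT, SD, n = 3 each), although Tfrc was above it in UtyGT. Of the 9 cytosolic assembly genes, 2 were higher and 1 was lower at that level, and Ciao2b was the most abundant (992 ± 139 in UtyGT and 1076 ± 47.1 in WT). Of the 4 tested transcripts of the last list, 1 was lower at an unadjusted p under 0.05. These counts are to be read against the 13.1% and 15% of all tested genes given above.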

How the data were processed

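The deposited table holds, for 6 cardiomyocyte libraries, signal values that are read counts per gene divided by the authors by a DESeq2 size factor. Per the labels and the submitters' processing notes, stranded libraries of ribodepleted RNA were read as single 50-base reads and processed with CASAVA 1.4, STAR 2.5.1b on GRCm38, featureCounts 1.6.0 and DESeq2 1.22.2. The table also holds the authors' own comparison, namely deposited log2 fold changes with errors, the deposited Wald score, and p-values of the authors, which were not used. Whole reads were recovered by division (100% of values whole at a tolerance of 0.001).

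Log2(normalized count + 1) was fitted with limma 3.58.1 (variance trend, R 4.3.3) for the 13875 genes averaging 10 or more normalized counts. P-values were two-sided, with Benjamini-Hochberg adjustment across the whole tested table, and rose or fell means an adjusted p under 0.05. Fold changes are UtyGT over WT on the log2(value + 1) scale. EdgeR 4.0.16 (quasi-likelihood) and DESeq2 1.42.0 were run on the recovered reads, on which edgeR called 730 genes higher and 812 lower. Other pseudocounts (0.5, 8), filters, scalings, moderation, protein-coding genes alone, a replicate block and leaving out each library were tried. The limma and edgeR steps of the pipeline were tested on simulated data, the outcome of which is not given here.

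Genes named were the 10 members, every called gene of the lists, and the most abundant gene of a list with none called. For 1 list that gene is not reported here. Alas2, Ncoa4 and the macrophage markers below 0 were named after their values were seen. The members and lists were chosen with earlier results of these data known. Positions, exon lengths, shared windows and elements came from GENCODE M21 on GRCm38. Rows without a gene name (123) held 0.00343% of reads. Any pair of libraries from a strain differed beyond sampling noise (a chi-square of 9.19 to 44.6 for each degree of freedom), and each was counted as 1 replicate. Whether ventricles (labels) or whole hearts (study text) were digested differs between the sources.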

Additional observations from a re-analysis of the deposited data

How the results depend on the processing

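Among the 10 genes, 1 rose and 1 fell. With no filter 2 rose, with quantile normalization 2 rose, and with moderation without a trend 0 rose and 0 fell. The additional calls were Tfrc without a filter and Fth1 with quantile normalization. With 1 library left out, 0 to 1 rose (0 without UtyGT d, WT e or WT f) and 1 to 2 fell (2 without UtyGT f, by the addition of Hmox1). Of the wider pathway, 2 rose and 8 fell: with no filter 4 rose, with scaling to reads outside the mitochondrial genome 4 rose, and with moderation without a trend 0 rose and 0 fell. With 1 library left out, 0 to 5 rose and 2 to 10 fell. The cause was not tested. No direction turned in any alternative for a called member. Of all genes 632 rose and 849 fell. Without a trend these were 76 and 70, without a filter 1004 and 1045, and with 1 library left out 167 to 999 and 233 to 1226. The lowest counts came without WT e (167 rose) and without WT f (233 fell), the highest without UtyGT e.

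Letters e and f occur in both strains, and the labels do not say that they mark a shared day. Deviations of same-lettered libraries correlated at 0.11 (e) and 0.15 (f), with 2 pairs alone. Pairs of UtyGT and WT libraries with unlike letters lay lower, between -0.15 and 0.08. Deviations from a strain's own mean cancel out within the strain, so that a higher value of a pair lowers others. The contrast is partly built in and cannot show a shared day. Letters d and g each occur in 1 strain alone. A fit with the letter as a replicate block therefore compares the strains within e and f only, 2 libraries against 2. In that fit 2 of the 10 genes rose, Ftl1 and Tfrc (log2 fold change 0.48, limma adjusted p = 0.0041), and 1 fell. For Tfrc it keeps UtyGT e, on which the estimate rests, and UtyGT d and WT g do not enter. Of the wider pathway, 3 genes rose and 7 fell. Pgrmc1 (adjusted p = 0.051) and Nfu1 (0.10) were not called by limma under the block.

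With 3 libraries per strain, the printed 95% intervals are limma intervals for each gene alone, without adjustment for the 13875 genes tested. They cover neither the choice of scaling nor the uncertainty of reads shared between genes.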
